A study of Homo sapiens with 4 samples.

Results

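The NRF2 antioxidant program was followed here as 40 genes, chosen by symbol: NFE2L2, which encodes NRF2, its negative regulator KEAP1, its dimer partner MAFG, and 37 genes known as NRF2 targets. All 40 had a row among the 25192 genes of the deposited tables, and all 40 passed the filter on low counts that left 14099 genes for testing. RNA was sequenced from A549, a human lung adenocarcinoma cell line, in 2 libraries from cells transduced with a control empty virus (EV), which expresses GFP alone, and 2 libraries from cells transduced with the FCN3 virus, a retrovirus made with pLZRS-IRES-GFP that carries full-length FCN3 with a V5 tag along with GFP. FCN3 is a secreted lectin of the ficolin family, and the comparison asks what its ectopic expression does to the transcriptome. RNA was taken 48 h after infection in both groups, and the libraries of each group carry the replicate numbers 1 and 2. Both groups are populations of the same line after infection, and nothing in the labels states whether the replicates were separate cultures, so that p-values measure the spread between these libraries, which may be technical.

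NRF2 is a transcription factor that pairs with small MAF proteins on antioxidant response elements and switches on genes for detoxication, for glutathione and thioredoxin chemistry and for the supply of NADPH. In unstressed cells KEAP1 holds NRF2 in the cytoplasm and feeds it to a CUL3 ubiquitin ligase for destruction, and electrophiles or oxidants that react with KEAP1 cysteines let NRF2 escape. A549 is known as a line with an inactivating KEAP1 mutation and a constantly active NRF2 program, which the expression tables used here cannot show as a genotype.

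To show the element that the program is named for, the core letters TGACNNNGC were searched on both strands in RefSeq promoter windows (GRCh38.p14) that run from 250 bases before to 50 bases after a gene's start. The promoter table matched 30 of the 40 genes, and 10 of these 30 held the letters, CBR1, CYP4F11, EPHX1, GCLM, GPX2, KEAP1, ME1, PGD, PIR and TXNRD1, beside 16.1% of the 27305 genes in the table. A match is a string of letters, not a measured binding site, and NRF2 can act from elements outside such a window. For the 9 genes with a match before the start, 1 match each is printed 5′ to 3′, to show which letters vary between genes whose values are given below, with the match in capitals.
GCLM, chr1:93909446-93909474, plus strand: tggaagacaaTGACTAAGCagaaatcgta
KEAP1, chr19:10502784-10502812, plus strand: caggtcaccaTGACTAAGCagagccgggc
GPX2, chr14:64942849-64942877, plus strand: atccccaggaTGACTTAGCaaaaacaggt
TXNRD1, chr12:104215670-104215698, plus strand: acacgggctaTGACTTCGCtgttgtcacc
ME1, chr6:83431170-83431198, minus strand: tctcctgccaTGACTCAGCgcttctcgca
EPHX1, chr1:225825266-225825294, plus strand: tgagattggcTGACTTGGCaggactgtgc
CYP4F11, chr19:15935005-15935033, plus strand: cagctcagggTGACACAGCatgggcacag
CBR1, chr21:36069855-36069883, minus strand: ccagctagccTGACTTTGCagaacccgca
PGD, chr1:10398853-10398881, minus strand: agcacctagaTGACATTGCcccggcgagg
The 9 capital letters were the same in GCLM and KEAP1, a subunit of the glutathione-making enzyme and the inhibitor of the pathway. The ME1 match holds within it TGACTCA, the AP-1 motif, which was found in 3 of the 30 genes beside 6.05% of all genes. The letters TGATGNAA, a form of the C/EBP-ATF element bound by ATF4, were found in 0 of the 30 genes beside 4.46% of all genes. Genes with the TGACNNNGC letters were among those that rose (GCLM, TXNRD1, ME1, CYP4F11), those that fell (GPX2, EPHX1, CBR1, PGD) and those that did not pass the test (KEAP1, PIR).

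The 4 libraries held between 16353554 and 35733735 expected counts, and replicate 1 was the deeper library in each group. A floor of 3 counts stood at 0.084 to 0.183 CPM, counts scaled to a common library total, under the level of each of the 40 genes in every library, and it covers counting error only. FCN3 had 1 and 0 counts in the EV libraries and 722388 and 448352 counts in the FCN3 libraries, 2.06% and 2.23% of their totals, so the libraries matched their labels. Of the epithelial markers, KRT8 lay between 1761 and 2651 CPM and KRT18 between 1131 and 1767 CPM, while EPCAM was at 1.00 to 3.11 CPM and CDH1 at 9.23 to 24.4 CPM. All 4 of these passed the paired test, KRT8 and KRT18 higher and EPCAM and CDH1 lower with the FCN3 virus, and their part in the changes below was not tested. The defining markers of leukocytes (PTPRC), endothelium (PECAM1) and alveolar type II cells (SFTPC) and the fibroblast gene COL1A2 were at 0 to 2 counts in every library, and COL1A1 was at 9.23 to 26.4 CPM without a call. In bulk samples, fewer cells that express a gene and less RNA of it per cell cannot be told apart.

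In EV cells many genes of the program were among the most abundant transcripts. Levels between genes are compared here in TPM, which takes transcript length into account. FTL, the ferritin light chain, had the highest mean TPM of all 25192 genes, ALDH1A1, a retinaldehyde dehydrogenase, was in place 8 and FTH1, the ferritin heavy chain, in place 9. AKR1B10, an aldo-keto reductase, came in place 38, and 6 of the 40 genes stood among the 100 highest genes and 22 among the 1000 highest. At the other end 4 genes, CES1, GPX3, CYP4F11 and CYP4F3, had EV means under 20 TPM. The 40 genes together made up 4.70% and 5.35% of all TPM in EV replicates 1 and 2 and 4.43% and 4.90% in FCN3 replicates 1 and 2, so the groups overlapped. With the 2 ferritin genes set aside, the remaining 38 summed to 2.69% and 2.82% in EV and to 2.27% and 2.33% with the FCN3 virus, both FCN3 libraries below both EV libraries. FCN3 itself took 4.16% and 4.47% of TPM in the FCN3 libraries, which lowers the share of every other gene there. With FCN3 left out of the total, a calculation added after these shares were seen, the 38 genes summed to 2.37% and 2.44% in the FCN3 libraries, still below both EV libraries.

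**Figure D1:**
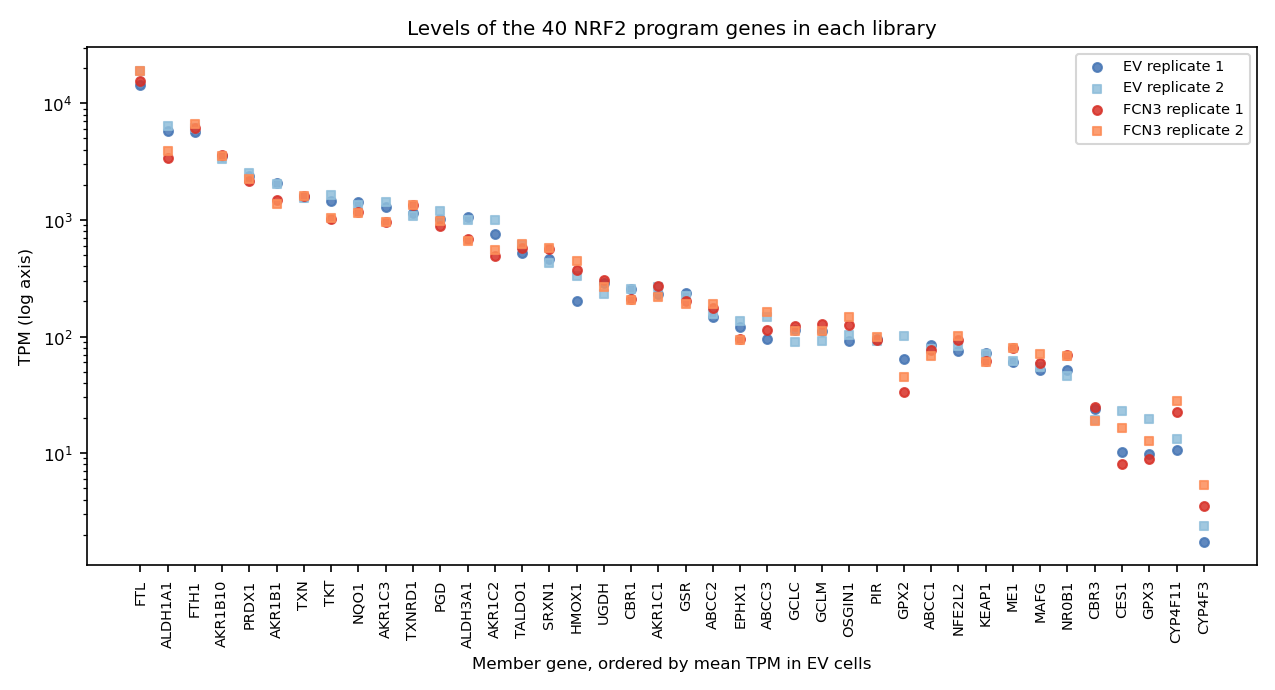
TPM on a log axis of the 40 genes in each of the 4 libraries, ordered by mean TPM in EV cells (circles, replicate 1; squares, replicate 2; blue, EV; red and orange, FCN3). Levels run from FTL at the left, with an EV mean of 16732 TPM, to CYP4F3 at the right, with 2.04 TPM, and the 4 symbols of most genes lie close together.

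With the FCN3 virus, the program did not move as 1 block. NFE2L2 itself, TXN, TXNRD1 and SRXN1 of the thioredoxin system, both subunits of glutamate-cysteine ligase and HMOX1 rose, whereas 5 of 8 quinone, aldo-keto and carbonyl reductases, ALDH1A1, ALDH3A1 and the glutathione peroxidase GPX2 fell. Libraries were compared with edgeR's quasi-likelihood test in a fit with the replicate number as a block, so that each FCN3 library was set against the EV library of the same number, and a gene was called at a Benjamini-Hochberg adjusted p (FDR) under 0.01 over all tested genes. In this fit 31 of the 40 genes were called, 19 higher and 12 lower, which is 77.5% of them. Of all tested genes 36.2% were called, 19.1% higher and 17.1% lower. The 40 genes were chosen with earlier results of these data known, so these shares only describe the list. High counts make small changes easier to call, so the share was also read among genes whose mean log2 CPM reached 5. There 27 of 34 members were called, beside 47.8% of all 6043 genes at or above that level. This cut does not match levels, since 22 of the 40 members were among the 1000 highest genes by EV mean TPM. The part of high counts in the members' share is thus not removed. The changes were mostly small. The median log2 fold change of the 40 genes was 0.15, beside 0.01 over all tested genes, and the median absolute log2 fold change was 0.34, beside 0.22. A change of 0.5 or more in size on the log2 scale was reached by 8 of the 40 genes, beside 20.9% of all genes, and 1.0 was passed by CYP4F11 and CYP4F3. HSPA5 and DDIT3, markers of endoplasmic reticulum stress in the same libraries, changed by 3.19 and 4.36 on this scale.

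These calls depend on the pairing. The block leaves 1 residual degree of freedom among 4 libraries, so each p leans on a spread pooled across genes. Without the block edgeR called 0 of the 40 genes, beside 0.965% of all genes. In that fit 20 of the 40 had an unadjusted p under 0.05, beside 3542 of all 14099 tested genes. An adjusted p under 0.05 was reached by 7 (SRXN1, ME1, ALDH1A1, ALDH3A1, CYP4F11, OSGIN1 and NR0B1), beside 1014 of all tested genes. DESeq2 without a block, the tool of the study, called 13 of the 40, beside 7.64% of all genes. Of these, 6 were higher (TXNRD1, SRXN1, ME1, CYP4F11, OSGIN1, NR0B1) and 7 were lower (AKR1B1, AKR1C2, AKR1C3, GPX2, TKT, ALDH1A1, ALDH3A1). With 2 libraries against 2, the smallest two-sided p of an exact permutation test is 0.333, so the libraries were also simply ranked. Both FCN3 libraries were above both EV libraries for 18 members (28.0% of all genes) and below both for 12 (26.5% of all genes), and the groups overlapped for 10. Below, rose and fell are used of genes called in the paired fit, whose adjusted p is the one printed.

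**Figure D2:**
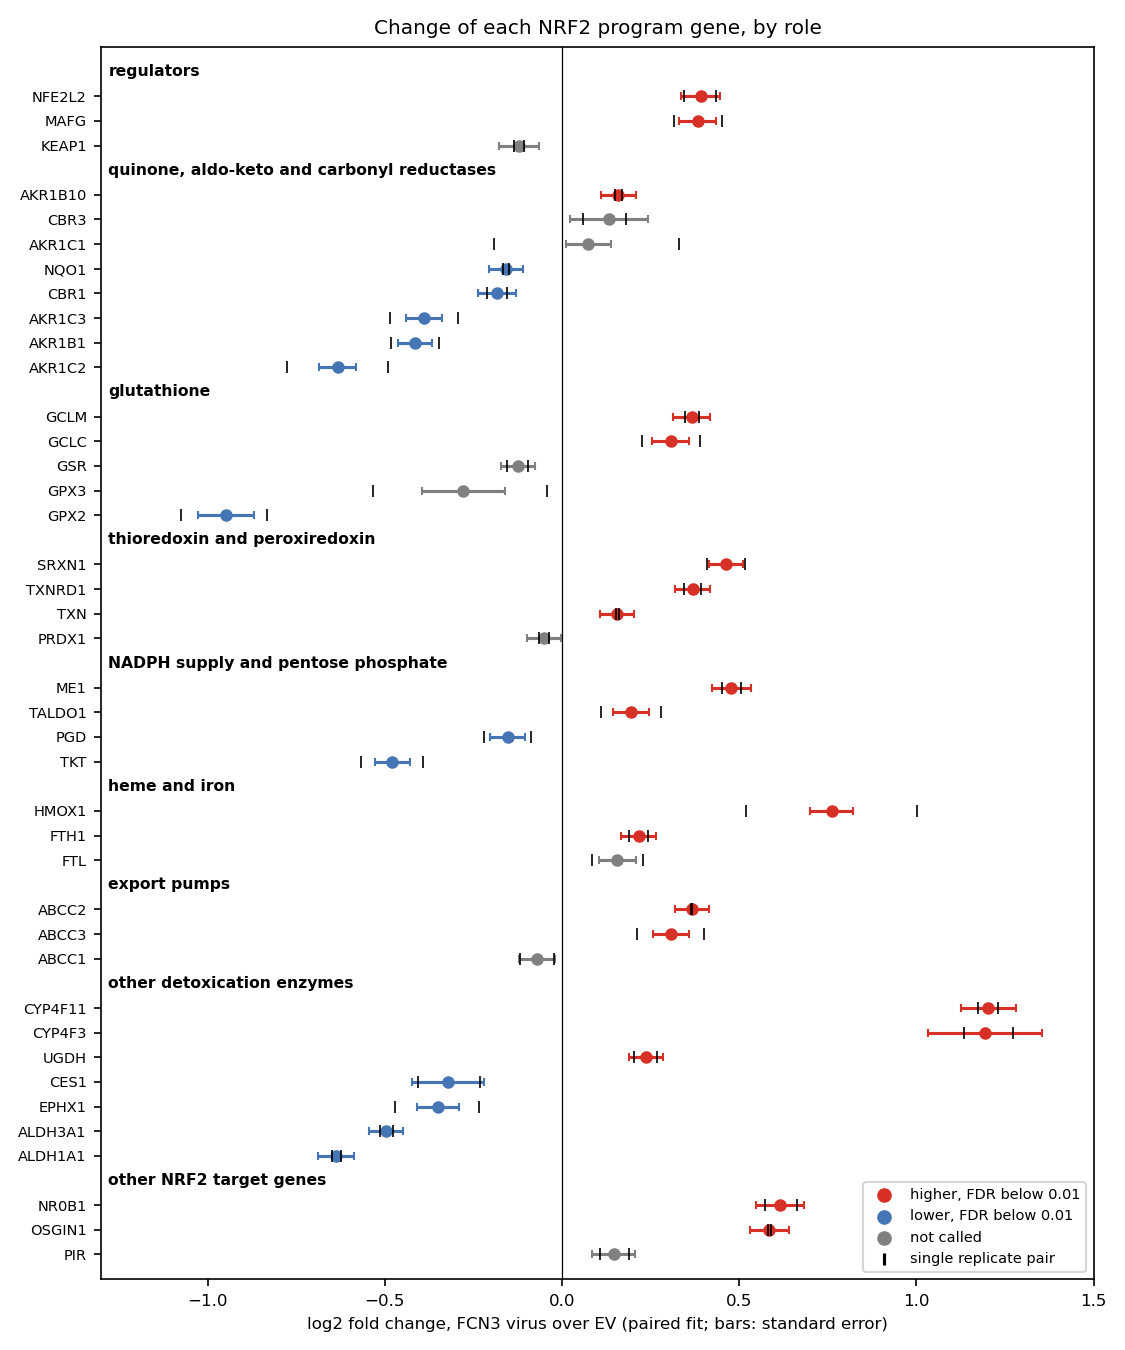
Log2 fold change of each gene with the FCN3 virus over EV from the paired edgeR fit, grouped by role (dots, estimates with their standard error as bars; short black lines, each replicate pair alone; red, called higher; blue, called lower; grey, not called). The 40 values run from -0.95 for GPX2 to 1.20 for CYP4F11, and 19 are called higher and 12 lower.

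Among the regulators, the transcripts of NRF2 and of its partner rose and that of its inhibitor did not pass the test. NFE2L2 (chromosome 2:178083395-178257484, minus strand, GRCh37) stood at 109 and 121 CPM in EV replicates 1 and 2 and at 147 and 154 CPM in FCN3 replicates 1 and 2. Both FCN3 libraries were above both EV libraries, a rise of 1.31-fold (log2 fold change 0.39, standard error 0.054, adjusted p = 2.9e-08, edgeR). MAFG, a small MAF protein that pairs with NRF2 on DNA, was at 139 and 148 CPM in EV and 172 and 203 CPM in FCN3 libraries, again without overlap, and rose 1.30-fold (log2 fold change 0.38, standard error 0.053, adjusted p = 3.2e-08). KEAP1 (chromosome 19:10596801-10614234, minus strand, GRCh37) was at 94.9 and 93.1 CPM in EV and 88.0 and 84.8 CPM in FCN3 libraries. Its FCN3 libraries were both lower by a little, and the difference did not pass the test (log2 fold change -0.12, standard error 0.057, adjusted p = 0.078). Exons of NFE2L2 overlap AGPS and HNRNPA3 on the other strand in GENCODE, and exons of MAFG overlap SIRT7 on its own strand, so reads there may be split between genes.

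The quinone, aldo-keto and carbonyl reductases use NADPH to reduce quinones, aldehydes, ketones and steroids. Of 8 genes, 5 fell, 1 rose and 2 did not pass the test, beside 17.1% of all tested genes called lower and 19.1% higher. Their summed level went from 0.953% and 0.965% of TPM in EV replicates 1 and 2 to 0.818% and 0.798% in FCN3 replicates 1 and 2. With FCN3 left out of the total the FCN3 replicates stood at 0.854% and 0.835%. NQO1, the quinone reductase often read as the standard NRF2 target, was at 1865 and 1795 CPM in EV and 1662 and 1618 CPM in FCN3 libraries. Both FCN3 libraries were lower, and NQO1 fell by 10.4% (log2 fold change -0.16, standard error 0.048, adjusted p = 0.0057). AKR1B1, the aldose reductase that makes sorbitol from glucose, was at 1377 and 1367 CPM in EV and 1083 and 977 CPM in FCN3 libraries and fell by 25.0% (log2 fold change -0.42, standard error 0.049, adjusted p = 4.2e-10). Its relative AKR1B10, which reduces retinaldehyde and other aldehydes and lies next to it on chromosome 7, was at 2731 and 2611 CPM in EV and 3027 and 2933 CPM in FCN3 libraries and rose 1.12-fold (log2 fold change 0.16, standard error 0.049, adjusted p = 0.0066). The groups did not overlap for either gene, and the pair thus went in opposite directions. The calls of NQO1 and AKR1B10 were lost without the low-count filter and with FCN3 left out before normalization. AKR1B10 shares reads with the near-identical AKR1B15, which was at 17.5 to 21.0 CPM, and the sum of AKR1B10 and AKR1B15 gave a log2 fold change of 0.16 (edgeR adjusted p = 0.0065).

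The AKR1C enzymes reduce steroids and prostaglandins and are encoded side by side on chromosome 10. AKR1C2 was at 1309 and 1710 CPM in EV and 932 and 998 CPM in FCN3 libraries and fell by 35.5% (log2 fold change -0.63, standard error 0.052, adjusted p = 5e-15). AKR1C3, which makes testosterone and prostaglandin F, was at 738 and 820.2 CPM in EV and 602 and 585 CPM in FCN3 libraries and fell by 23.7% (log2 fold change -0.39, standard error 0.050, adjusted p = 4e-09). For both genes the 2 FCN3 libraries were below the 2 EV libraries. AKR1C1 was at 154 and 177 CPM in EV and 194 and 155 CPM in FCN3 libraries, with the groups overlapping and the 2 pairs pointing in opposite directions (0.33 for replicate 1 and -0.19 for replicate 2 on the log2 scale), and it was the 1 member of 40 whose pairs differed in sign. AKR1C1 and AKR1C2 are almost identical in sequence and RSEM divides shared reads between them, so their separate values are uncertain. Summed, AKR1C1 and AKR1C2 changed by -0.54 (adjusted p = 5.8e-12), and AKR1C1 to AKR1C4 by -0.49 (standard error 0.054, adjusted p = 7.9e-10, edgeR), with AKR1C4 itself at 0.050 to 0.082 CPM. The carbonyl reductase CBR1 was at 151 and 151 CPM in EV and 135 and 130.0 CPM in FCN3 libraries and fell by 12.0% (log2 fold change -0.18, standard error 0.053, adjusted p = 0.0037), without overlap. CBR3, its neighbour on chromosome 21, was at 12.3 and 10.0 CPM in EV and 13.9 and 10.5 CPM in FCN3 libraries and did not pass the test (adjusted p = 0.34), and its exons overlap CBR3-AS1 on the other strand.

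In the glutathione group, the 2 subunits of the enzyme that limits synthesis rose and a peroxidase fell. GCLC, the catalytic subunit of glutamate-cysteine ligase, was at 228 and 181 CPM in EV and 266 and 237 CPM in FCN3 libraries and rose 1.24-fold (log2 fold change 0.31, standard error 0.052, adjusted p = 2.3e-06). GCLM, the modifier subunit, was at 175 and 145 CPM in EV and 223 and 189.8 CPM in FCN3 libraries and rose 1.29-fold (log2 fold change 0.37, standard error 0.052, adjusted p = 4.9e-08). In both genes the 2 FCN3 libraries lay above the EV libraries, and in both replicate 2 was below replicate 1 in either group. GPX2 (chromosome 14:65405870-65409464, minus strand, GRCh37), a selenium-containing peroxidase of epithelia that uses glutathione to reduce peroxides, was at 32.6 and 51.1 CPM in EV and 18.3 and 24.2 CPM in FCN3 libraries. No FCN3 library reached an EV library, and GPX2 fell by 48.2% (log2 fold change -0.95, standard error 0.078, adjusted p = 5.1e-15), the largest decrease among the 40 genes. The secreted peroxidase GPX3 was at 8.62 and 17.0 CPM in EV and 8.37 and 11.8 CPM in FCN3 libraries, with overlap, and was not called (adjusted p = 0.046). GSR, which returns oxidised glutathione to its reduced form, was at 382 and 367 CPM in EV and 357 and 330.0 CPM in FCN3 libraries and missed the threshold as well (log2 fold change -0.12, standard error 0.049, adjusted p = 0.034), although its groups did not overlap.

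Of 4 genes of the thioredoxin system, 3 rose and none fell, beside 19.1% of all tested genes called higher and 17.1% lower. The call of TXN was lost without the low-count filter and with FCN3 left out before normalization. TXN, thioredoxin, was at 594 and 591 CPM in EV and 663 and 656 CPM in FCN3 libraries and rose 1.11-fold (log2 fold change 0.16, standard error 0.048, adjusted p = 0.0061). TXNRD1 (chromosome 12:104609557-104744085, plus strand, GRCh37), the selenoprotein that reduces thioredoxin with NADPH, was at 2366 and 2248 CPM in EV and 3005 and 2950 CPM in FCN3 libraries and rose 1.29-fold (log2 fold change 0.37, standard error 0.049, adjusted p = 1.1e-08). SRXN1, sulfiredoxin, which repairs over-oxidised peroxiredoxins, was at 603 and 566 CPM in EV and 800.3 and 808 CPM in FCN3 libraries and rose 1.38-fold (log2 fold change 0.46, standard error 0.049, adjusted p = 1.5e-11). All 3 had both FCN3 libraries above both EV libraries, and the replicates of a group lay close together. PRDX1, an abundant peroxiredoxin and a substrate of sulfiredoxin, was at 1111 and 1169 CPM in EV and 1082 and 1117 CPM in FCN3 libraries. Its groups overlapped and it did not pass the test (log2 fold change -0.05, standard error 0.048, adjusted p = 0.4).

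The genes that supply NADPH split. ME1, cytosolic malic enzyme, was at 112 and 113 CPM in EV and 158 and 155 CPM in FCN3 libraries. Both FCN3 libraries were far above the EV pair, and ME1 rose 1.39-fold (log2 fold change 0.48, standard error 0.054, adjusted p = 1.3e-10). Of the pentose phosphate enzymes, TALDO1, transaldolase, was at 303 and 358 CPM in EV and 367 and 386 CPM in FCN3 libraries and rose 1.14-fold (log2 fold change 0.19, standard error 0.051, adjusted p = 0.0012). TKT, transketolase, was at 1599 and 1811 CPM in EV and 1219 and 1222 CPM in FCN3 libraries and fell by 28.3% (log2 fold change -0.48, standard error 0.050, adjusted p = 9.8e-12). The groups of these did not overlap, although TALDO1 in EV replicate 2 was only just below FCN3 replicate 1. PGD, phosphogluconate dehydrogenase, the NADPH-producing step, was at 984 and 1165 CPM in EV and 926 and 1000 CPM in FCN3 libraries. Its groups overlapped, since EV replicate 1 was below FCN3 replicate 2, and it fell by 10.1% within pairs (log2 fold change -0.15, standard error 0.049, adjusted p = 0.0079).

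Of the 3 heme and iron genes, 2 rose and 1 did not pass the test, beside 19.1% of all tested genes called higher. HMOX1 (chromosome 22:35776354-35790207, plus strand, GRCh37), heme oxygenase, which opens the heme ring to release iron, carbon monoxide and biliverdin, was at 156 and 259 CPM in EV and 311 and 371 CPM in FCN3 libraries. Both FCN3 libraries were higher than both EV libraries, and HMOX1 rose 1.69-fold (log2 fold change 0.76, standard error 0.061, adjusted p = 1.6e-15). The size differed between the pairs, 1.00 for replicate 1 and 0.52 for replicate 2 on the log2 scale, and EV replicate 1 was much lower than EV replicate 2. With EV replicate 1 left out, in a fit without the block, it was 0.41. FTH1, the ferritin heavy chain with the ferroxidase centre, was at 3256 and 3609 CPM in EV and 3852 and 4114 CPM in FCN3 libraries and rose 1.16-fold (log2 fold change 0.22, standard error 0.050, adjusted p = 0.00031), without overlap. FTL was at 5516 and 7350 CPM in EV and 6461 and 7786 CPM in FCN3 libraries, with overlap, and did not pass the test (log2 fold change 0.16, standard error 0.052, adjusted p = 0.012). Both ferritin mRNAs have many processed pseudogene copies and FTH1 exons overlap BEST1 on the other strand, so that their counts depend on how shared reads were assigned.

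The ABCC genes encode pumps that export glutathione and glucuronide conjugates. ABCC2 was at 395 and 417 CPM in EV and 509.6 and 537 CPM in FCN3 libraries, without overlap, and rose 1.29-fold (log2 fold change 0.37, standard error 0.049, adjusted p = 9e-09). ABCC3 was at 254 and 398 CPM in EV and 336 and 462 CPM in FCN3 libraries. EV replicate 2 was above FCN3 replicate 1, so its groups overlapped, and it rose 1.24-fold within pairs (log2 fold change 0.31, standard error 0.051, adjusted p = 1.4e-06). ABCC1, at 293 and 277 CPM in EV and 289 and 255 CPM in FCN3 libraries, overlapped and was not called (adjusted p = 0.25).

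All 7 other detoxication enzymes were called, 3 higher and 4 lower, beside 36.2% of all tested genes called in either direction. They held both the largest rises and the greatest loss of RNA. Their summed level was 0.730% and 0.782% of TPM in EV and 0.454% and 0.499% with the FCN3 virus (0.473% and 0.522% with FCN3 left out of the total), most of it ALDH1A1. ALDH1A1 (chromosome 9:75515587-75695358, minus strand, GRCh37), which makes retinoic acid from retinaldehyde, was at 6988 and 7768 CPM in EV and 4454 and 5039 CPM in FCN3 libraries. The FCN3 libraries were well below the EV libraries, and ALDH1A1 fell by 35.7% (log2 fold change -0.64, standard error 0.051, adjusted p = 1.8e-15). ALDH3A1, which oxidises aromatic and medium-chain aldehydes, was at 921 and 882 CPM in EV and 662 and 618 CPM in FCN3 libraries and fell by 29.1% (log2 fold change -0.50, standard error 0.048, adjusted p = 1.1e-12). EPHX1, the microsomal epoxide hydrolase, was at 99.2 and 112 CPM in EV and 84.2 and 81.0 CPM in FCN3 libraries and fell by 21.6% (log2 fold change -0.35, standard error 0.059, adjusted p = 2.2e-06). Neither gene's groups overlapped. The carboxylesterase CES1 was at 10.3 and 23.5 CPM in EV and 8.82 and 17.7 CPM in FCN3 libraries. In both groups replicate 2 was far above replicate 1, the groups overlapped, and CES1 fell to 0.80 of its EV level within pairs (log2 fold change -0.32, standard error 0.10, adjusted p = 0.0076). With EV replicate 2 or FCN3 replicate 1 left out, in fits that had no block, its log2 fold change turned to 0.31 and 0.10.

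In the same group CYP4F11 (chromosome 19:16023177-16045677, minus strand, GRCh37), a fatty acid omega-hydroxylase of the endoplasmic reticulum, was at 16.8 and 21.3 CPM in EV and 39.3 and 48.1 CPM in FCN3 libraries. Both FCN3 libraries were far above both EV libraries, and CYP4F11 rose 2.30-fold (log2 fold change 1.20, standard error 0.077, adjusted p = 5.2e-19). CYP4F3, which hydroxylates leukotriene B4, was at 2.66 and 3.64 CPM in EV and 5.84 and 8.80 CPM in FCN3 libraries and rose 2.29-fold (log2 fold change 1.19, standard error 0.16, adjusted p = 1.5e-08). The CYP4F genes lie together on chromosome 19 and share sequence, with CYP4F2 at 0 to 0.050 CPM and CYP4F12 at 0.192 to 1.02 CPM, and the sum of the 4 changed by 1.18 (adjusted p = 4.1e-19, edgeR). UGDH, which makes UDP-glucuronic acid for conjugation, was at 471 and 387 CPM in EV and 543 and 466 CPM in FCN3 libraries. EV replicate 1 was above FCN3 replicate 2 by a little, so the groups overlapped, and UGDH rose 1.18-fold within pairs (log2 fold change 0.24, standard error 0.049, adjusted p = 6.3e-05). UGDH exons overlap UGDH-AS1 and EPHX1 exons TMEM63A, both on the other strand.

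Of the last 3 targets, OSGIN1, an oxidative stress-induced growth inhibitor, was at 88.3 and 100.1 CPM in EV and 132 and 150.5 CPM in FCN3 libraries and rose by 49.9% (log2 fold change 0.58, standard error 0.055, adjusted p = 4.4e-13). NR0B1, the orphan nuclear receptor DAX-1, which is known for its expression in KEAP1-mutant lung cancer, was at 39.5 and 35.8 CPM in EV and 58.8 and 56.8 CPM in FCN3 libraries and rose 1.53-fold (log2 fold change 0.61, standard error 0.067, adjusted p = 4.5e-11). Neither overlapped between groups, and both pairs gave nearly the same size, 0.58 and 0.59 for OSGIN1 and 0.57 and 0.66 for NR0B1. PIR, pirin, an iron-binding nuclear protein, was at 70.5 and 69.3 CPM in EV and 75.9 and 78.9 CPM in FCN3 libraries, higher in both FCN3 libraries but not called (log2 fold change 0.15, standard error 0.060, adjusted p = 0.042). OSGIN1 exons overlap MLYCD on the same strand.

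**Figure D3:**
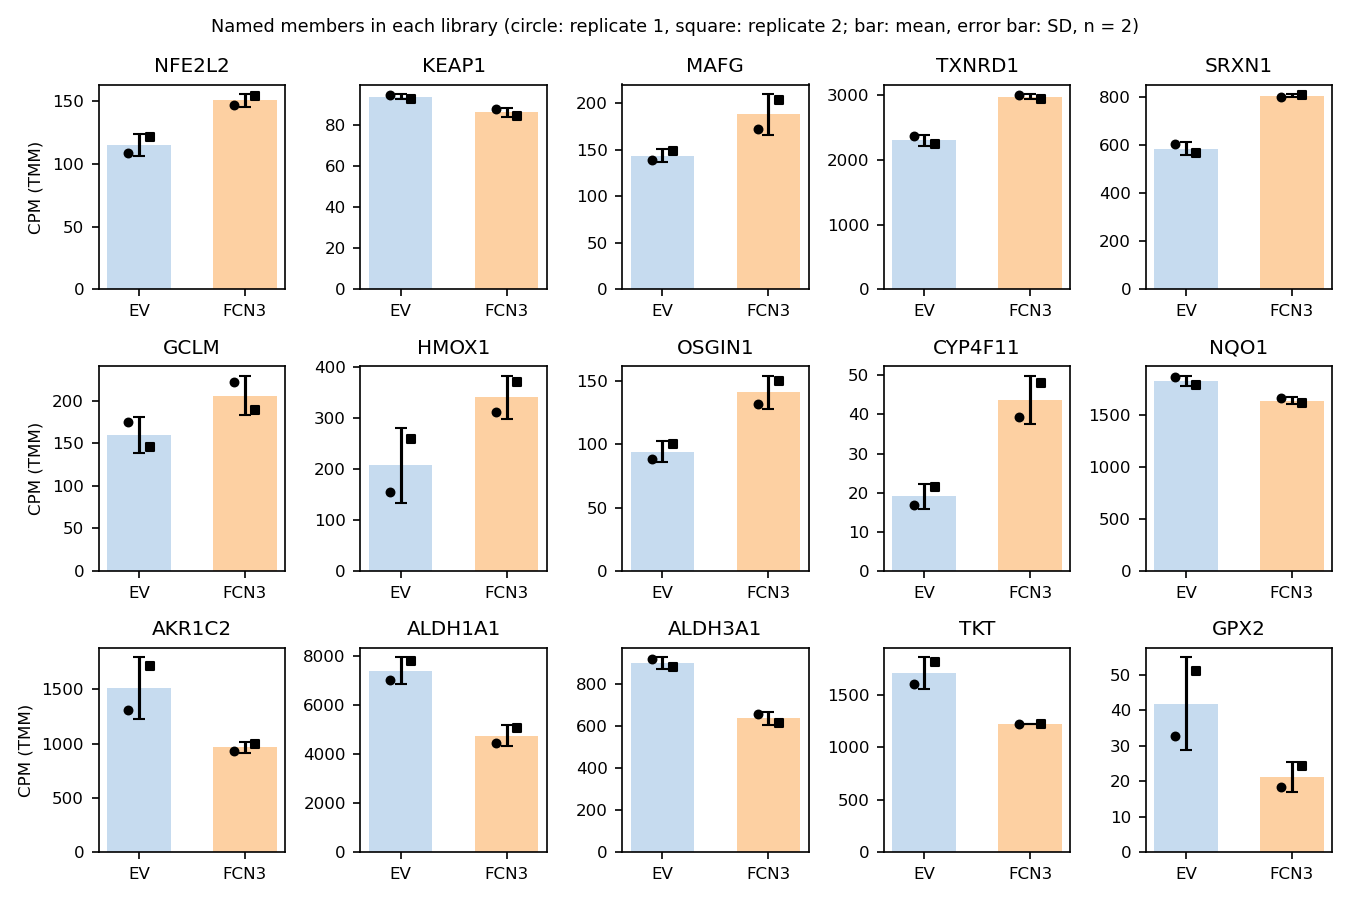
CPM (TMM-normalized, axes from 0) of 15 of the genes in each library, with bars at the group mean and error bars of 1 SD (n = 2; circle, replicate 1; square, replicate 2). NFE2L2, MAFG, TXNRD1, SRXN1, GCLM, HMOX1, OSGIN1 and CYP4F11 stand higher with the FCN3 virus and NQO1, AKR1C2, ALDH1A1, ALDH3A1, TKT and GPX2 lower, without overlap, and HMOX1 and GPX2 show the widest spread between EV replicates relative to their mean.

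The program also varied between replicate numbers. In the paired fit 15 of the 40 genes (37.5%) differed between replicate 2 and replicate 1 at the same threshold, beside 22.2% of all genes, and 12 of the 15 were higher in replicate 2. CES1 (1.10 on the log2 scale, replicate 2 over replicate 1), GPX3 (0.74), ABCC3 (0.55), GPX2 (0.53) and HMOX1 (0.49) were among those higher in replicate 2, and UGDH (-0.25), GCLM (-0.25) and GCLC (-0.25) were lower. For CES1, GPX3, ABCC3, FTL, UGDH and PGD this difference was larger in size than that between the viruses. What the replicate number stands for is not given in the labels, and replicate 2 was the shallower library in both groups. Within pairs, 39 of the 40 genes changed with the FCN3 virus in the same direction in both, and the exception was AKR1C1. Among called genes the pairs agreed in sign for all 31 members and for 5095 of all 5103. Over all tested genes such agreement was not counted. In the 4 further lists given below it held for 14 of 16 partners and turnover factors and 18 of 22 further targets. It held for 14 of 20 other antioxidant enzymes and 10 of 10 genes of cysteine and glutathione turnover. Of the 31 called genes, 4 had groups that overlapped (PGD, ABCC3, UGDH and CES1), so that their changes show only within pairs. None of the 31 calls was kept by edgeR without the block, and DESeq2 without it called 6 members higher and 7 lower. In edgeR fits with a library left out, which had no block and set a lone library against 2 of both numbers, the log2 fold change of 8 called genes moved by over 1.5 times. HMOX1 was one of them, as given above. GCLC went to 0.48 without EV replicate 1 and 0.14 without EV replicate 2, and GCLM to 0.23 without EV replicate 2 and 0.24 without FCN3 replicate 1. TALDO1 went to 0.08 and 0.31 and PGD to -0.26 and -0.04 without EV replicates 1 and 2. UGDH went to 0.39 and 0.09 without these and to 0.12 without FCN3 replicate 1. ABCC3 went to 0.01 and 0.64 without EV replicates 1 and 2 and to 0.50 and 0.04 without FCN3 replicates 1 and 2, and CES1 to -0.86, 0.31, 0.10 and -0.91 in the same order. The other called genes stayed within that range.

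**Figure D4:**
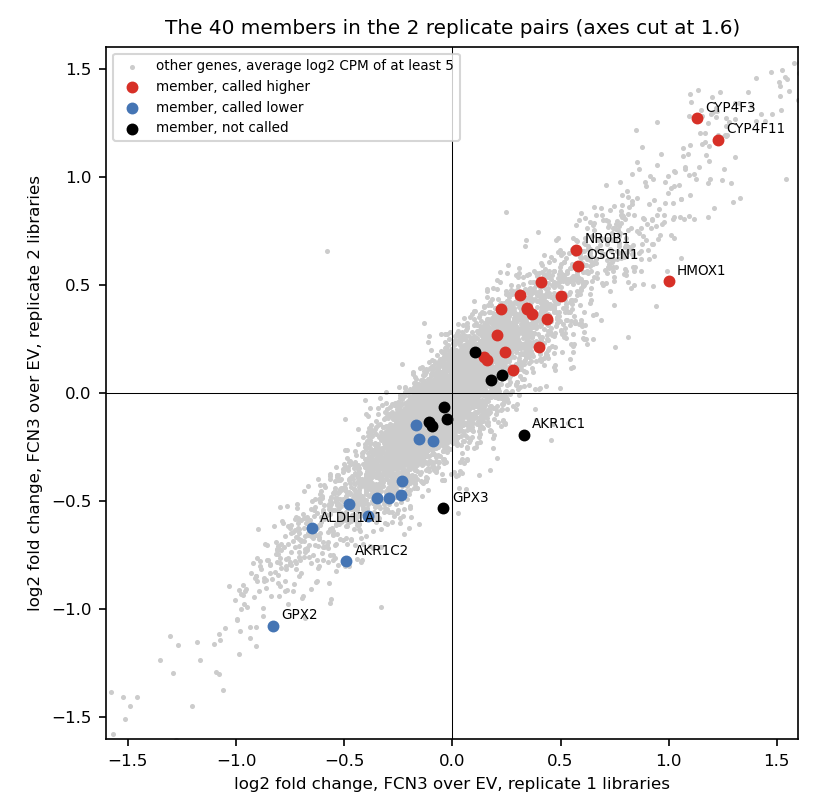
Log2 fold change of FCN3 over EV in the replicate 2 libraries (vertical) against the replicate 1 libraries (horizontal), for the 40 genes (red, called higher; blue, called lower; black, not called) and other genes whose mean log2 CPM reached 5 (grey), on axes that end at 1.6. AKR1C1, with 0.33 and -0.19, is the single member in a quadrant of opposite signs, and HMOX1, with 1.00 and 0.52, lies off the diagonal.

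Genes around the program were read from 4 further lists. Among partners of NRF2 and factors of its turnover, 16 of 18 were tested, and 7 rose and 4 fell (median log2 fold change 0.09), beside 19.1% and 17.1% of all tested genes in this fit. The largest rises were SYVN1, an E3 ligase of the endoplasmic reticulum that can also target NRF2, with 1.74 (2.1e-28), EIF2AK3, the stress kinase PERK, with 1.47 (8.6e-25), MAFF with 0.92 (1.4e-08) and SQSTM1, the autophagy adaptor p62 that binds KEAP1, with 0.72 (3.2e-18), each given as a log2 fold change and the edgeR adjusted p. SYVN1 and EIF2AK3 were also called without the block. The largest falls were RBX1, the RING subunit of the CUL3 ligase, with -0.29, GSK3A with -0.24, NFE2L3 with -0.23 and DPP3 with -0.23.

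Among further NRF2 targets outside the 40, 22 of 24 were tested, and 4 rose and 6 fell (median log2 fold change 0.03), which is 45.5% called beside 36.2% of all tested genes. Without the block edgeR called 0 of the 22, and 8 of them had an unadjusted p under 0.05, beside 3542 of all 14099 tested genes. DESeq2 without the block called 3, beside 7.64% of all genes. IDH1, an NADPH-producing isocitrate dehydrogenase, rose by 0.74, RIT1 by 0.66, the cystine transporter SLC7A11 by 0.66 and biliverdin reductase B (BLVRB) by 0.45 on the log2 scale. UGT1A1 and UGT1A6, glucuronosyltransferases that share exons, fell from low levels, with UGT1A1 at 0.659 and 2.15 CPM in EV and 0 and 0.201 CPM with the FCN3 virus and UGT1A6 at 1.92 and 3.52 CPM and 0.737 and 0.603 CPM. Their fold changes (-3.95 and -1.85) rest on so few counts that the sizes are loose. GGT1 (-0.39) and the pump ABCG2 (-0.34) fell by less.

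Of other antioxidant enzymes 20 of 23 were tested, and 3 rose and 5 fell (median log2 fold change -0.02), all by less than 0.5. These 8 of 20 are a share near the 36.2% of all tested genes. PRDX5 (0.27), GPX8 (0.21) and GLRX3 (0.21) rose, and the mitochondrial peroxiredoxin PRDX3 (-0.45), MSRB1 (-0.43), the mitochondrial superoxide dismutase SOD2 (-0.37) and GLRX5 (-0.34) were the largest falls. Neither edgeR nor DESeq2 called any of these without the block. Of the 20, 6 had an unadjusted edgeR p under 0.05, beside 3542 of all 14099 tested genes. All 10 genes of cysteine and glutathione turnover were tested, and 4 rose and 3 fell (median log2 fold change 0.32), beside 19.1% and 17.1% of all tested genes. CHAC1, which breaks glutathione down, was at 2.14 and 2.39 CPM in EV and 25.4 and 25.0 CPM in FCN3 libraries and rose by 3.50 (adjusted p = 3.7e-29), CBS, the first enzyme from homocysteine towards cysteine, by 1.80, and OPLAH, which returns 5-oxoproline to glutamate, by 1.16. CHAC2 (-0.62), GGCT (-0.41) and GGT1 fell. CHAC1 and CBS were called without the block as well. SLC7A11 and GGT1 belong to both this list and that of further targets.

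**Figure D5:**
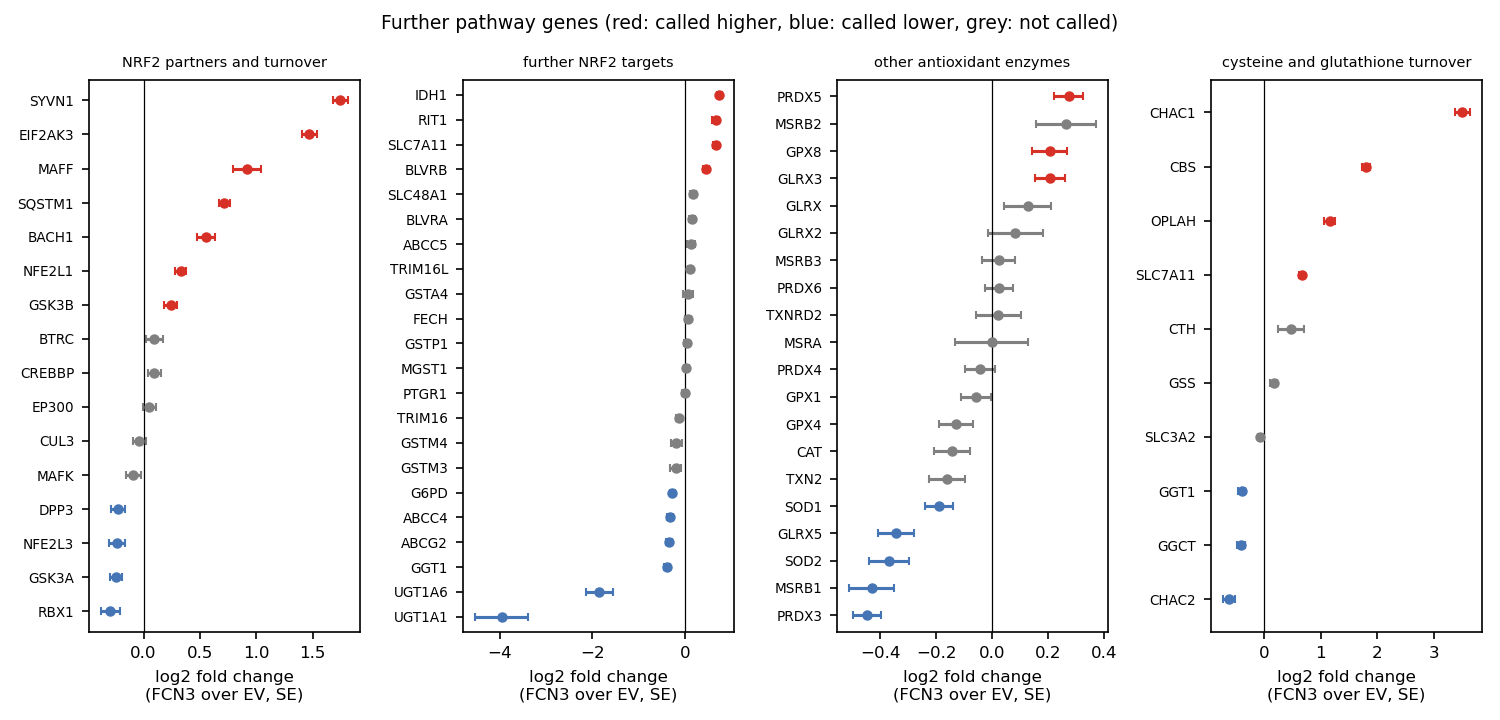
Log2 fold change with standard error (FCN3 virus over EV, paired edgeR fit) of the tested genes of the 4 further lists, each panel with an axis of its own (red, called higher; blue, called lower; grey, not called). CHAC1 at 3.50 and SYVN1 at 1.74 lie farthest to the right in their panels, and all other antioxidant enzymes lie between -0.45 and 0.27.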

How the data were processed

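RNA was measured in 4 libraries of A549 cells, 2 EV and 2 FCN3, grouped by the sample labels. The authors made stranded mRNA libraries, read them as pairs, trimmed the reads with Fastx_toolkit, aligned them to hg19 with STAR 2.6.1d and quantified genes with RSEM. Expected counts, as deposited, are estimated reads for each gene without normalization and need not be whole numbers. TPM, also deposited, were scaled by RSEM for length and depth. FPKM was not used. The annotation and the strand setting are not given in the sources used here, so genes with overlapping exons are uncertain.

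Expected counts were rounded and tested in R 4.3.3 with edgeR 4.0.16 (filterByExpr, TMM, quasi-likelihood test with the replicate number as a block, Benjamini-Hochberg adjustment over 14099 genes, FDR 0.01). CPM are TMM-normalized, and standard errors were computed from each log2 fold change and the square root of its F statistic. The pairing comes from the replicate numbers in the labels, and same-numbered libraries deviated together (Pearson r = 0.802 across 8268 genes, which are not independent). The 40 genes and the further lists were chosen with earlier results of these data known. Named in full were called members, those whose log2 fold change reached 0.5 in size and the 3 regulators, and from each further list up to 4 called genes in each direction. The tests were also run on simulated counts in which 200 genes were given a log2 fold change of 1 in size. Most changes reported here are smaller, so that run does not speak to them.

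Alternatives were no block, DESeq2 1.42.0 with and without the block, RLE factors, FCN3 left out, no filter, a minimum of 10 counts in all libraries, the legacy method, limma 3.58.1 on log2(TPM + 1) and log2(TPM + 0.1), an FDR of 0.05 and each library left out. The 4 libraries held 16353554 to 35733735 expected counts. Gene locations and exon overlaps are from GENCODE on GRCh37 and promoter sequences from RefSeq (GRCh38.p14).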

Additional observations from a re-analysis of the deposited data

How the results depend on the processing

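The replicate block decided most calls. Without it edgeR called 0 members higher and 0 lower, beside 136 of all 14099 tested genes. It then called 2 partners, 0 further targets, 0 other antioxidant enzymes and 2 genes of cysteine and glutathione turnover. DESeq2 without the block called 6 members higher and 7 lower, beside 1077 of all 14099 tested genes, and 4, 3, 0 and 4 genes of those lists. DESeq2 with the block called 16 members higher and 8 lower, beside 2257 of all 14099 tested genes. It also called 7 partners and 3 other antioxidant enzymes. The fits with each library left out had no block, because 3 libraries leave none of the residual freedom it needs. A lone library stood in 1 of the groups there, so only effect sizes are given for these fits. On log2(TPM + 0.1) limma called 12 members higher and 14 lower, beside 4428 of all 14099 tested genes. On log2(TPM + 1) it called 13 higher and 14 lower, beside 4581 of all 14099, and KEAP1 and GSR were also called lower there. The members' median log2 fold change was 0.0466 on log2(TPM + 1), 0.0468 on log2(TPM + 0.1) and 0.047 to 0.14 with a library left out. Over all tested genes the median moved too, from 0.01 to -0.07 and -0.09 in those TPM fits. AKR1C1 changed sign on log2(TPM + 1) and log2(TPM + 0.1), to -0.0344 and -0.0346. With a library left out, signs turned for AKR1C1 (-0.10 to 0.23), CBR3 (-0.10 to 0.31), GPX3 (-0.78 to 0.19), FTL (-0.0346 to 0.36), ABCC1 (-0.16 to 0.016) and CES1 (-0.91 to 0.31). RLE factors, FCN3 left out, no filter, at least 10 counts, the legacy method and an FDR of 0.05 turned no sign. NQO1, AKR1B10, TXN and PGD, called by small margins, lost their call without the filter and with FCN3 left out. In all, 6 members lost a call without the filter, 4 with FCN3 left out and 2 with RLE factors. Causes were not tested.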
